A study of Mus musculus with 12 samples.

Results

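The nuclear pore and nuclear transport genes are the nucleoporins that build the pore in the nuclear envelope, the importins, transportins and exportins that carry proteins and RNA through it, and the Ran proteins that drive the carriers. Members were found by gene symbol in the probe annotation of the arrays: symbols of the series Nup, Kpna, Kpnb, Ipo, Xpo and Tnpo followed by a number (or t, for Xpot), and Ran, Rangap1, Ranbp1, Ranbp2, Tpr, Pom121, Rae1 and Ndc1. This gave 49 genes of the 18193 genes that had a probe set (a group of probes for 1 transcript region) carrying 1 gene symbol. The symbols Tpr and Nup35 had no such probe set in the tables used here. The rule itself refers to symbols and not to values. In each tissue a gene was read at its probe set with the highest mean over the tissue's 6 samples, and 45 of the 49 genes were read at the same probe set in liver and muscle.

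The samples were liver and quadriceps muscle of C57BL/6 mice aged 4 weeks. In the NP group (normal protein) the dams ate a diet with 20% casein and drank water, and in the NP+tau group the dams ate the same diet and had 1% taurine, a sulfur-containing amino acid, in the drinking water. The supplement was given from day 1 of pregnancy until birth, so the pups themselves were not treated after birth. Each group had 3 pups per tissue. Every pup came from another dam, and the liver and muscle samples are of the same animals. RNA was measured on Affymetrix mouse arrays, and all values below are log2 expression values, so that a difference of 1 is a doubling. The comparison addressed whether taurine given to control dams was followed by other expression in their young.

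A nuclear pore is a ring of stacked protein layers. The Y complex and the inner ring form its scaffold, nucleoporins rich in phenylalanine and glycine repeats fill the channel, filaments reach into the cytoplasm and a basket hangs into the nucleus. Importins bind cargo in the cytoplasm and release it in the nucleus when they meet Ran bound to GTP, whereas exportins bind cargo together with Ran bound to GTP and release it in the cytoplasm, where Rangap1 makes Ran hydrolyse its GTP. Importin alpha proteins recognise the classical nuclear localisation signal and ride on importin beta (Kpnb1), while most other importins bind cargo directly. Muscle fibres hold many nuclei in 1 cytoplasm, so this traffic runs at many envelopes per fibre. Hepatocytes often hold 2 nuclei or a polyploid one.

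The promoters of Kpna4, Kpna2 and Nup98 are shown because these 3 genes had the lowest unadjusted p of all members in muscle. Each run is the 250 bases before the annotated start in RefSeq on GRCm38.p6, read 5′ to 3′ on the gene's own strand, which is the minus strand for all 3 genes. Capitals mark the box GGGCGG and the box CCAAT on either strand. For Nup98, which has 2 annotated starts, the upstream one was used. The windows lie at chr3:69127093-69127342 for Kpna4, chr11:106999526-106999775 for Kpna2 and chr7:102210167-102210416 for Nup98.
Kpna4: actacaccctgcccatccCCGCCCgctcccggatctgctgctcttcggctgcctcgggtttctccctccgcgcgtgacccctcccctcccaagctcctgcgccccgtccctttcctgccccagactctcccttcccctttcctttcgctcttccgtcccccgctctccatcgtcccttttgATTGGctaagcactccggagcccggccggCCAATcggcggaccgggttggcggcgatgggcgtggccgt
Kpna2: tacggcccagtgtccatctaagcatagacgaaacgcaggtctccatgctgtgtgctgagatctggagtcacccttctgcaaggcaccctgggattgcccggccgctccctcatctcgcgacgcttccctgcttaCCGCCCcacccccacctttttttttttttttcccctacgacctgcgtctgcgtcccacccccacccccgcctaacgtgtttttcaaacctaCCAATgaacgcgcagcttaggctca
Nup98: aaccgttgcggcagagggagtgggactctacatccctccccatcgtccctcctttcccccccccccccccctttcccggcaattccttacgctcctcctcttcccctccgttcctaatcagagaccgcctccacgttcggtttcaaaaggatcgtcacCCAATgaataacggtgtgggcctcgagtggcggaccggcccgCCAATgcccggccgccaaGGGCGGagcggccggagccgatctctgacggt
Each of the 3 windows held 1 GGGCGG, and CCAAT occurred 2 times before Kpna4, 1 time before Kpna2 and 2 times before Nup98.

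A promoter entry was found for 41 of the 49 genes. GGGCGG, the box bound by SP1-type factors, was present before 28 of the 41, or 68.3%, against 45.8% of 17492 protein-coding genes. CCAAT was present before 19 of them, or 46.3%, against 39.5%. The letters GCGCNTGCG, part of the site known for NRF1, were present before 7 genes, or 17.1%, against 8.0%. The ETS letters CCGGAAG were found for 6 genes, or 14.6%, against 10.2%, and the cyclic AMP element TGACGTCA for 2 genes, or 4.9%, against 2.2%. Both strands were searched for every motif, none of these letter strings contains another, and matches of 2 motifs that overlap were counted for each. The members' windows had a median GC content of 64.0% and a median of 22 CpG, against 55.6% and 10 CpG over all windows. The part of base composition in the motif shares was not tested. These matches describe letters and not bound sites. The 49 genes lay on 15 chromosomes, none of them the X.

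Before the results, some features of the samples need to be known. In liver the array of NP+tau replicate 1 stood apart, with a median absolute distance of 0.45 from the median array against 0.0769 to 0.169 for the other 5 arrays, and with a median value of 5.66 against 5.83 to 5.93. The X-inactivation transcript Xist was at 10.85 to 11.78 in all NP samples and in NP+tau replicate 1 of both tissues, and at 5.07 to 5.96 in NP+tau replicates 2 and 3, whereas Eif2s3y, a gene of the Y chromosome, ran from 3.48 to 3.78 in the former and from 8.55 to 9.37 in the latter. The NP animals therefore all had the pattern of females and the NP+tau group that of 1 female and 2 males, although the study's methods describe both sexes in every group. Sex and diet overlap in this way. For single genes, results are also given without NP+tau replicate 1 in liver and without NP+tau replicate 2 in muscle. In both tissues NP+tau replicate 1 is the only NP+tau sample with the female pattern. Without it, all NP samples have the female pattern and all NP+tau samples the male one, so sex and diet cannot be told apart there. Probes at the 3′ end against the 5′ end of control transcripts, a measure of RNA integrity, moved with the muscle groups: the log2 difference for Gapdh lay between -0.11 and -0.04 across the NP samples and between -0.03 and 0.05 across those of NP+tau, without overlap, and that for Actb was highest in NP+tau replicate 3 at 0.37 against at most 0.16 elsewhere in muscle. Its part in the muscle values was not tested. Tissue markers matched the labels: the mean of 10 hepatocyte genes was 13.7 to 13.9 in liver, and that of 10 muscle fibre genes was 14.4 to 14.5 in muscle.

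All 49 genes passed the filter on dim probe sets in both tissues, which asked that the highest of the 6 values reach 4.60 in liver and 4.49 in muscle. The importin alpha gene Kpna7 passed it through a single sample in each tissue (NP+tau replicate 1 in liver and NP+tau replicate 2 in muscle), so its values elsewhere are near background. Without Kpna7, 37 of 48 genes were above 0 in muscle and 9 of 48 in liver. Counting dim ones, 39 of the 49 genes had several probe sets. All probe sets of a gene lay on the same side of 0 for 14 of these 39 in muscle and for 14 in liver.

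In muscle most genes of nuclear transport were higher in NP+tau than in NP, by amounts that did not pass the adjusted test. The difference was above 0 for 38 of the 49 genes, against 54.6% of the 13812 genes that passed the filter in muscle. The median difference was 0.24, against 0.03 over those genes. Shares of genes or of all genes given below are over genes that passed it. Without the filter, 8614 of 18193 genes were above 0 in muscle, with a median of -0.01. The 49 genes were brighter, at a median level of 7.97 against 6.78 over the genes that passed. With limma, 0 of 29274 probe sets (0%) passed an adjusted p of 0.05 in muscle, 1793 had an unadjusted p under 0.05, and the smallest adjusted p among the 49 genes was 0.707. At an unadjusted p under 0.05, 4 members were higher (Kpna4, Kpna2, Nup98 and Tnpo2), against 4.24% of genes, and 0 were lower, against 2.09% of genes. Every NP+tau value lay above every NP value for 10 members, against 8.44% of genes, and every NP+tau value lay below for 1 member (Nup107), against 7.25% of genes. The 10 were Kpna4, Nup98, Tnpo2, Nup93, Ipo8, Kpna1, Rangap1, Nup43, Nup50 and Nup62.

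**Figure D1:**
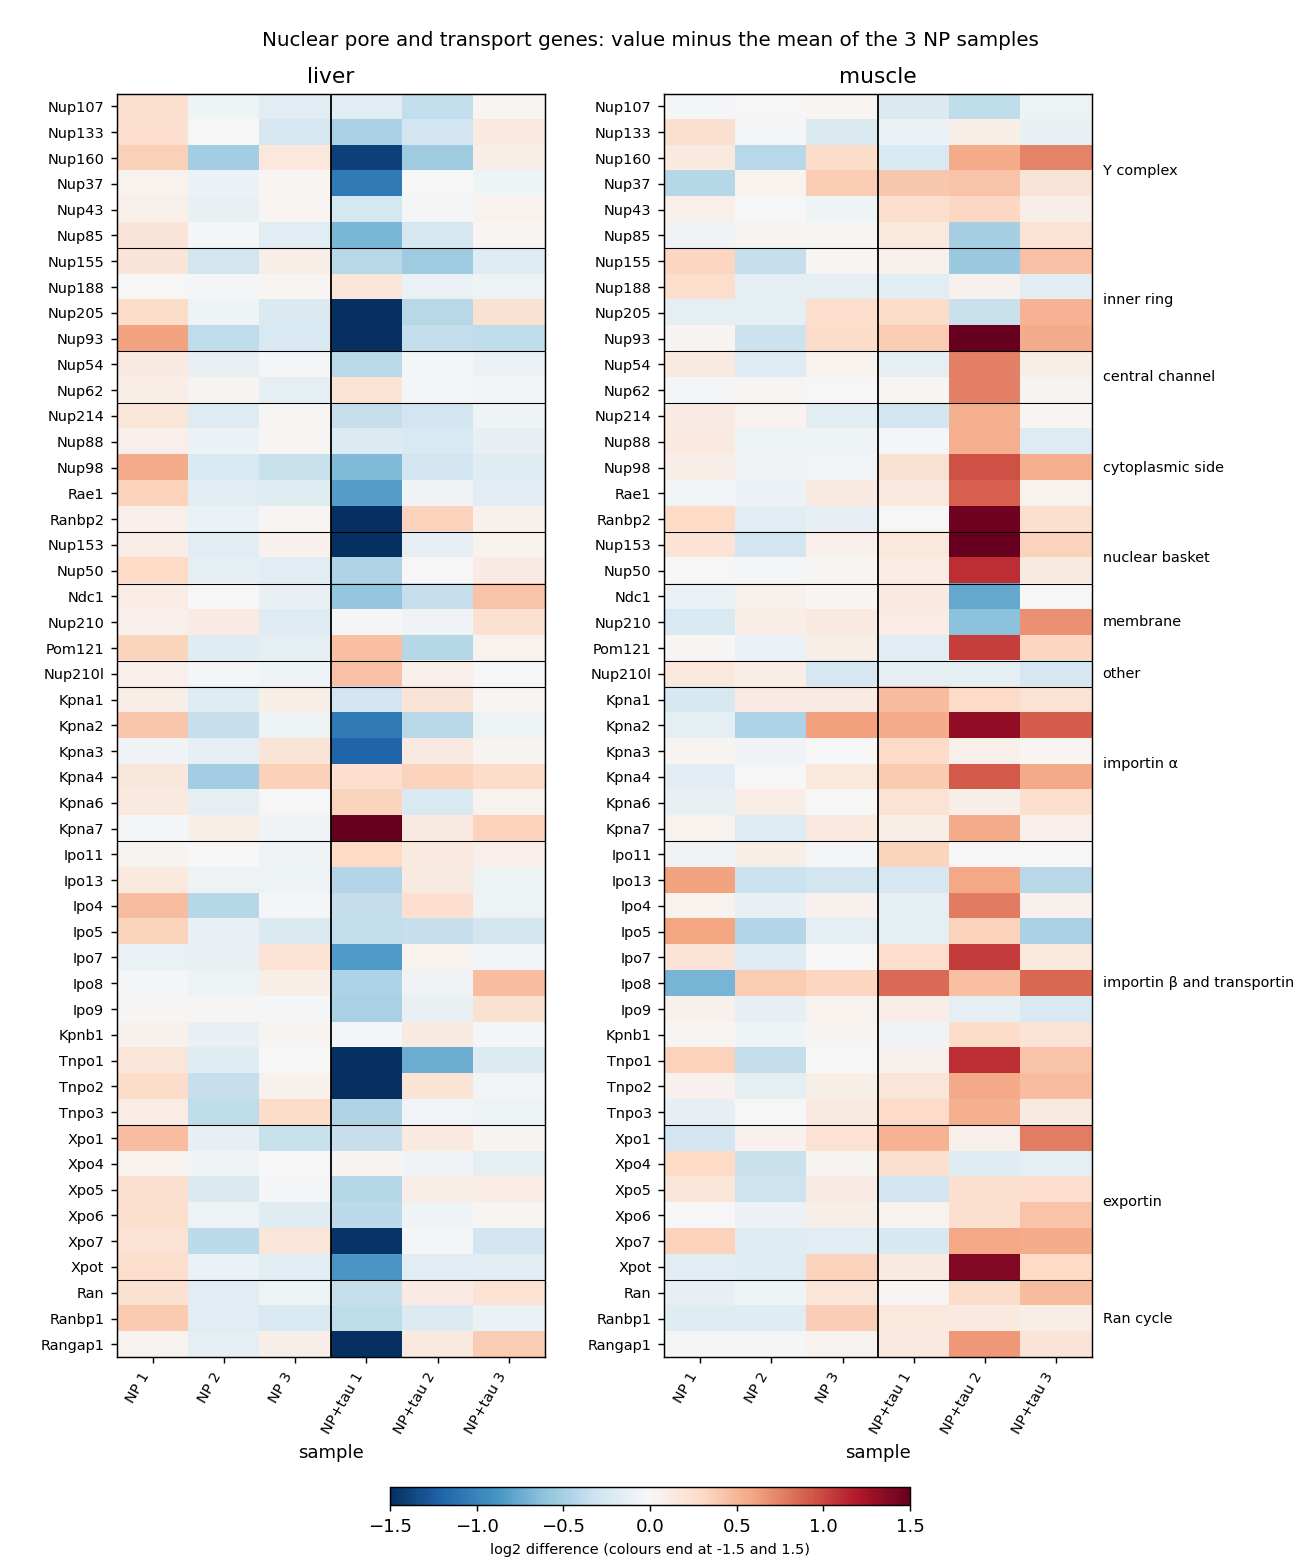
Each cell is the log2 value of a gene in a sample minus the mean of the 3 NP samples of that tissue, with genes in rows grouped by their place in the pore or their role in transport and samples in columns (colours end at -1.5 and 1.5). In liver the column of NP+tau replicate 1 is mostly blue, with 34 of 49 genes at their lowest there, and in muscle the column of NP+tau replicate 2 is mostly red, with 25 of 49 genes at their highest there.

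In liver the same genes leaned the other way. The difference was above 0 for 10 of the 49 genes, against 46.3% of the 14202 genes that passed the filter in liver. The median difference was -0.17, against -0.04 over those genes. Without the filter, 9429 of 18193 genes were above 0 in liver, with a median of 0.01. With limma, 0 of 29274 probe sets (0%) passed in liver, 1372 had an unadjusted p under 0.05, and the smallest adjusted p among the 49 genes was 0.718. At an unadjusted p under 0.05, 0 members were higher, against 0.831% of genes, and 0 were lower, against 4.32% of genes. Every NP+tau value lay above every NP value for 2 members (Kpna7 and Ipo11), against 5.95% of genes, and below for 3 members (Tnpo1, Ipo5 and Nup88), against 9.22% of genes. Without NP+tau replicate 1 the median in liver was -0.03 and 21 of 49 differences were above 0, and without replicate 1 of both groups the median was 0.05 with 30 above 0. Most of the lean in liver was thus carried by 1 array.

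Single samples carried much of both patterns. In liver, NP+tau replicate 1 held the lowest of the 6 values for 34 of the 49 genes, whereas it held the lowest for 41.3% of all genes, and NP replicate 1 held the highest for 30 of the 49, against 27.9% of all genes. Relative to the NP mean, the median over the 49 genes was -0.43, -0.05 and 0.02 in NP+tau replicates 1, 2 and 3 of liver. In muscle, NP+tau replicate 2 held the highest value for 25 of the 49 genes, against 23.4% of all genes, and NP replicate 2 held the lowest for 20 of them, against 15.0%. The corresponding medians in muscle were 0.11, 0.45 and 0.20. The median was above 0 in all 3 NP+tau samples of muscle and highest in replicate 2. Without NP+tau replicate 2 the median in muscle was 0.16 and 37 of 49 differences were above 0. Once Xist entered the fit as a covariate, the muscle median was 0.13, 34 of 49 differences were above 0 and 0 members had an unadjusted p under 0.05, and the liver median was -0.46 with 9 of 49 above 0.

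**Figure D2:**
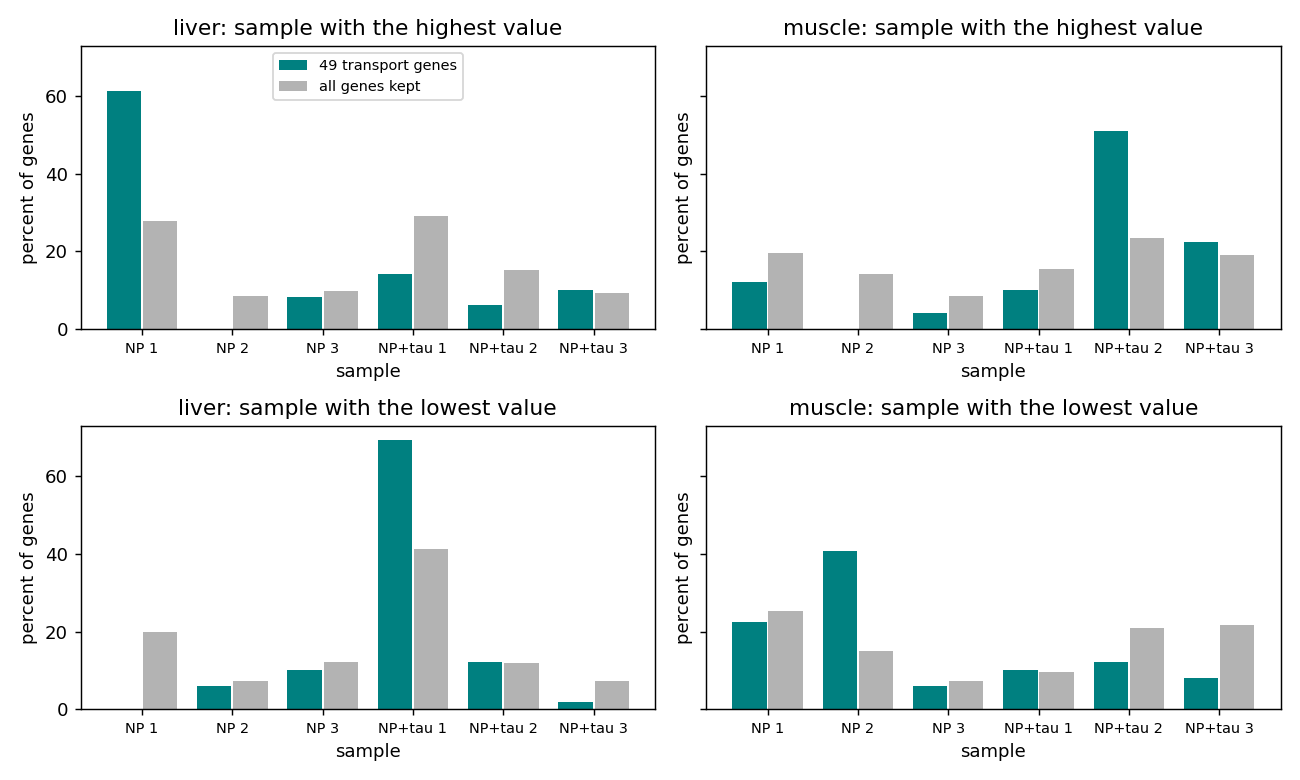
Bars give the percent of genes for which a sample held the highest (top) or the lowest (bottom) of its tissue's 6 values, for the 49 transport genes (teal) and for all genes that passed the filter in the tissue (grey). The transport genes were at their lowest in liver NP+tau replicate 1 for 69.4% and at their highest in muscle NP+tau replicate 2 for 51.0%.

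Importin alpha genes, whose proteins recognise the classical import signal, were above 0 in muscle for 5 of 5 genes other than Kpna7, with a median difference of 0.33. Kpna4 read 9.38, 9.54 and 9.70 in NP muscle and 9.93, 10.46 and 10.11 in NP+tau muscle. The groups did not overlap, and the difference was 0.63 (SE 0.18, n = 3 per group, limma unadjusted p = 0.0112, adjusted p = 0.707), or 1.54-fold. It had the lowest unadjusted p of the 49 genes, and the other probe set of Kpna4 differed by 0.13 with overlap. Kpna2, an importin alpha that is abundant in dividing cells, read 7.93, 7.62 and 8.70 in NP and 8.64, 9.41 and 9.0 in NP+tau. NP replicate 3 overlapped the NP+tau samples, and the difference was 0.93 (SE 0.32, limma unadjusted p = 0.0223, adjusted p = 0.707), or 1.91-fold.

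Kpna1 read 9.59, 9.96 and 9.95 in NP muscle and 10.31, 10.12 and 10.05 in NP+tau muscle, again without overlap, a difference of 0.33 (SE 0.16). It is also the importin alpha with the most probe sets, and all 5 differed upward in muscle, 3 of them without overlap by 0.33 to 0.53. Kpna3 and Kpna6 differed by 0.13 and 0.19 in muscle, with overlap between the groups, and Kpna7, near background, by 0.24.

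In liver the importin alpha genes had no shared direction, with 2 of the 5 other than Kpna7 above 0. Kpna7, an importin alpha best known from oocytes, read 4.00, 4.12 and 3.98 in NP liver and 6.30, 4.16 and 4.37 in NP+tau liver. All NP+tau values were above all NP values, yet only replicate 1 was clear of background, and the difference of 0.92 (SE 0.54, limma unadjusted p = 0.133, adjusted p = 0.718) was 0.24 without that sample. Kpna4 read 6.40, 5.71 and 6.59 in NP liver and 6.49, 6.58 and 6.50 in NP+tau liver. NP replicate 2 was low and the other 5 samples lay close together, so that the difference of 0.29 (SE 0.25) was 0.03 without that NP sample. Kpna6 read 7.09, 6.79 and 6.94 in NP liver and 7.27, 6.71 and 7.0 in NP+tau liver, a difference of 0.05 (SE 0.20) that lay within the spread of either group. Kpna2 differed by -0.52 (SE 0.31) in liver, with NP+tau replicate 1 lowest at 9.16 and the other 5 samples at 9.80 to 10.64.

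**Figure D3:**
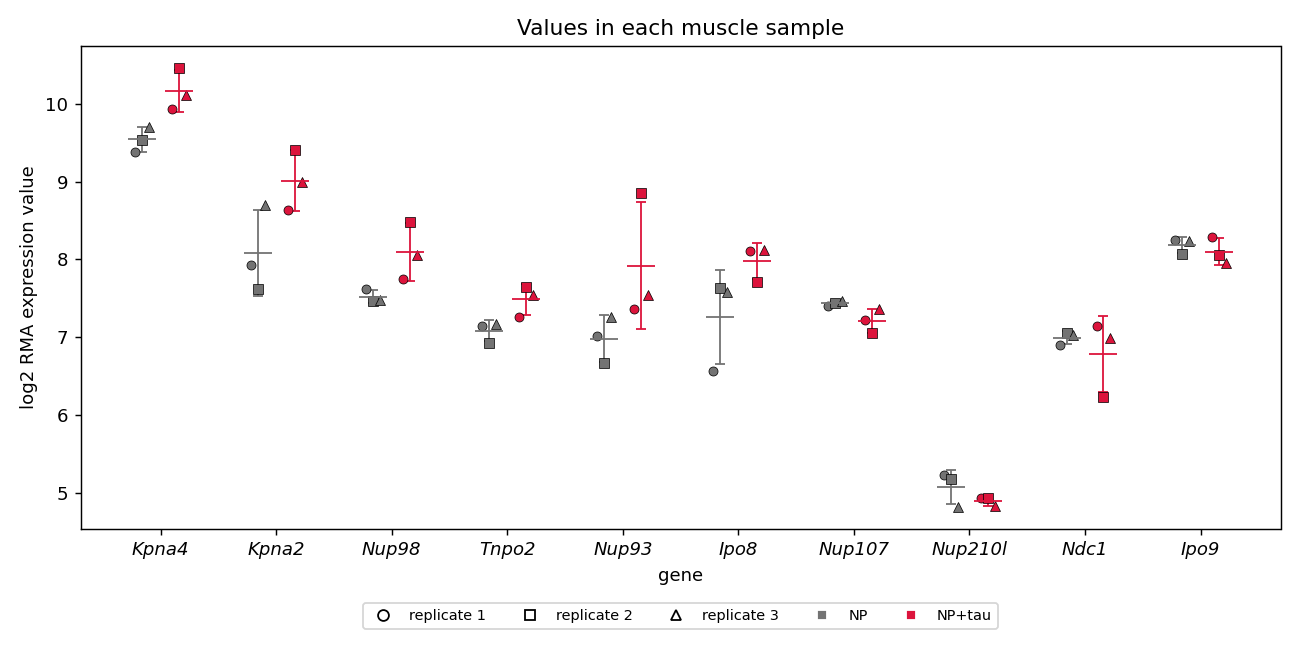
Points are the log2 values of 10 transport genes in each muscle sample, grey for NP and red for NP+tau, with the mark giving the replicate and the bars the mean and SD of 3 samples. Kpna4 separates the groups in all 6 samples, and Nup93 in NP+tau replicate 2 stands far above the other values of that gene at 8.86.

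The importin beta family and the transportins carry cargo without an adaptor, or with importin alpha in the case of Kpnb1. In muscle 8 of 11 were above 0, with a median difference of 0.24. Tnpo2, a transportin related to the carrier of RNA-binding proteins Tnpo1, read 7.15, 6.93 and 7.17 in NP muscle and 7.27, 7.65 and 7.55 in NP+tau muscle. At this probe set no NP+tau value reached down to the NP samples, and the difference was 0.40 (SE 0.16, limma unadjusted p = 0.0404, adjusted p = 0.707). The other 2 probe sets of Tnpo2 differed by -0.28 and -0.03, and the mean over all its probe sets differed by 0.03. Ipo8, an importin that also serves Argonaute proteins, read 6.57, 7.64 and 7.58 in NP muscle and 8.11, 7.71 and 8.13 in NP+tau muscle. NP replicate 1 was more than 1 log2 unit below the other NP samples, the groups did not overlap, and the difference was 0.72 (SE 0.31, limma unadjusted p = 0.0526), while the other probe set of Ipo8 that passed the filter differed by -0.27.

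Kpnb1, the importin beta that carries importin alpha, differed by 0.14 (SE 0.15) in muscle at its brightest probe set, one whose probes are shared with other transcripts by its name's suffix. Its other 3 probe sets differed by 0.49, 0.64 and 0.38, each with every NP+tau sample above every NP sample. Tnpo3, the transportin of splicing factors rich in serine and arginine, differed upward at all 3 of its probe sets in muscle, by 0.32, 0.51 and 0.79, and without overlap at the last. Tnpo1 differed by 0.54 (SE 0.30) and Ipo7, which imports ribosomal proteins among others, by 0.49 (SE 0.26), both with NP+tau replicate 2 highest. Ipo9 read 8.25, 8.07 and 8.24 in NP muscle and 8.29, 8.06 and 7.96 in NP+tau muscle, a difference of -0.08 (SE 0.15) with full overlap. Ipo4 and Ipo11 differed by 0.24 and 0.11, and Ipo5 and Ipo13 by -0.09 and -0.03.

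In liver 9 of these 11 genes were below 0. Tnpo1, which imports hnRNP proteins and other RNA-binding proteins, read 8.99, 8.62 and 8.79 in NP liver and 6.64, 8.05 and 8.60 in NP+tau liver. Every NP+tau value was below every NP value, although replicate 3 nearly reached the NP samples, and the difference was -1.04 (SE 0.47, limma unadjusted p = 0.0654, adjusted p = 0.718). Without NP+tau replicate 1 it was -0.47, and the other probe sets of Tnpo1 differed by -0.17 and -0.38. Ipo5, an importin of ribosomal proteins and core histones, read 9.10, 8.65 and 8.54 in NP liver and 8.39, 8.42 and 8.49 in NP+tau liver. The NP+tau samples lay within 0.1 of each other just under the lowest NP sample, and the difference was -0.33 (SE 0.20, limma unadjusted p = 0.142), with -0.31 without NP+tau replicate 1 and -0.16 without NP replicate 1, the highest sample. Its other probe sets went in opposite directions, by -0.90 and 0.31, with NP+tau replicate 1 far from the other samples at both (6.27 and 5.32). Ipo11, an importin whose cargo includes ubiquitin-conjugating enzymes, read 7.33, 7.30 and 7.24 in NP liver and 7.59, 7.44 and 7.37 in NP+tau liver. The NP+tau samples were all higher, but the gap was narrow and the difference of 0.18 (SE 0.16, limma unadjusted p = 0.306) was close to its error.

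**Figure D4:**
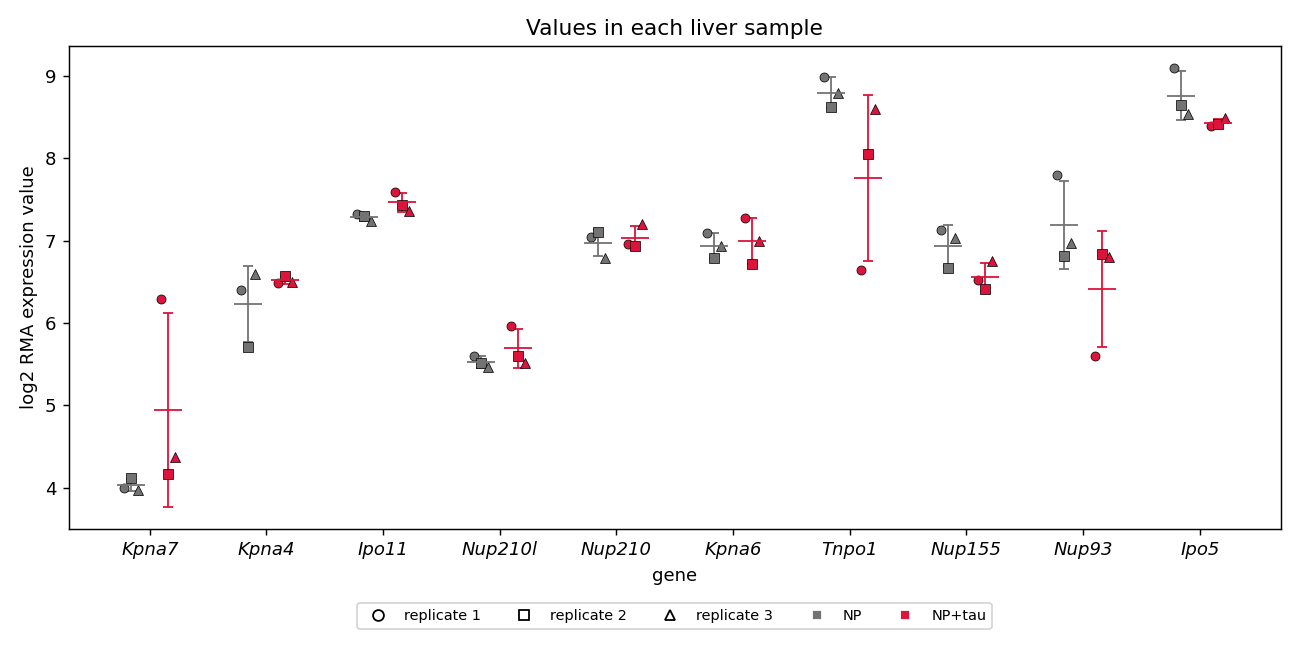
Points are the log2 values of 10 transport genes in each liver sample, grey for NP and red for NP+tau, with the mark giving the replicate and the bars the mean and SD of 3 samples. The red circle, NP+tau replicate 1, lies far from the other NP+tau samples for Kpna7 (6.30), Tnpo1 (6.64) and Nup93 (5.60).

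Among the structural groups of 2 or more nucleoporins, those of the cytoplasmic side and the nuclear basket had the largest median differences in muscle, and the scaffold had the smallest apart from the membrane nucleoporins. This order did not hold without NP+tau replicate 2. The cytoplasmic side then differed by 0.38 (Nup98), 0.12 (Ranbp2), 0.10 (Rae1), -0.11 (Nup88) and -0.13 (Nup214). The inner ring differed by 0.47 (Nup93), 0.40 (Nup205), 0.25 (Nup155) and -0.17 (Nup188), and the basket by 0.25 (Nup153) and 0.12 (Nup50). On the cytoplasmic side, which handles messenger RNA as it leaves, 5 of 5 were above 0 in muscle with a median of 0.36. Nup98, a mobile nucleoporin whose repeats also help to form the channel's barrier, read 7.62, 7.46 and 7.48 in NP muscle and 7.75, 8.48 and 8.05 in NP+tau muscle. The groups did not overlap, and the difference was 0.57 (SE 0.21, limma unadjusted p = 0.0271, adjusted p = 0.707), or 0.38 without NP+tau replicate 2. The second probe set of Nup98 differed by -0.26. Rae1, the messenger RNA export factor that binds Nup98, differed by 0.36 (SE 0.24) and Ranbp2, the large nucleoporin of the cytoplasmic filaments, by 0.57 (SE 0.38), with both probe sets of Rae1 that passed the filter and all 4 of Ranbp2 upward. Nup214 and Nup88, partners in the same filaments, differed by 0.09 and 0.11, and the other probe set of Nup214 by -0.30.

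Both basket genes were above 0 in muscle, with a median of 0.58. Nup50, a basket protein that helps to release import cargo, read 7.06, 7.02 and 7.07 in NP muscle and 7.16, 8.15 and 7.18 in NP+tau muscle. All NP+tau values were higher, yet NP+tau replicate 2 alone made most of the difference of 0.45 (SE 0.28). Nup153, which anchors the basket, read 8.71, 8.23 and 8.59 in NP and 8.66, 10.13 and 8.86 in NP+tau muscle. Here too NP+tau replicate 2 was far above the others, the groups overlapped, and the difference was 0.71 (SE 0.38). Its other probe set that passed the filter differed by 0.98, without overlap.

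The channel nucleoporins Nup54 and Nup62, which carry the repeats that sort cargo, differed by 0.24 and 0.27 in muscle. Of the 5 Nup54 probe sets that passed the filter, 4 differed upward. The remaining one differed by -0.43 (limma unadjusted p = 0.041), with every NP+tau value below every NP value. Nup62 read 10.06, 10.10 and 10.09 in NP muscle and 10.10, 10.84 and 10.12 in NP+tau muscle. The groups did not overlap, but NP+tau replicates 1 and 3 lay within 0.1 of the NP samples. All 4 of its probe sets that passed the filter differed upward.

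In the scaffold the directions were mixed in muscle, with 3 of 6 Y complex genes and 2 of 4 inner ring genes above 0. Nup93, the organiser of the inner ring, read 7.02, 6.67 and 7.26 in NP muscle and 7.37, 8.86 and 7.54 in NP+tau muscle. The groups did not overlap, and the difference of 0.94 (SE 0.40, limma unadjusted p = 0.0510, adjusted p = 0.707) was 0.47 without NP+tau replicate 2. Nup107, the Y complex member after which the complex is often named, read 7.41, 7.44 and 7.47 in NP muscle and 7.22, 7.05 and 7.36 in NP+tau muscle. It was the only one of the 49 genes with every NP+tau value below every NP value in muscle, and it differed by -0.23 (SE 0.14, limma unadjusted p = 0.148). Nup43, a smaller member of the same complex, read 6.41, 6.33 and 6.27 in NP muscle and 6.61, 6.65 and 6.43 in NP+tau muscle, without overlap and with a difference of 0.22 (SE 0.14). Thus 2 members of the same Y complex lay on opposite sides.

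The other Y complex genes differed in muscle by 0.36 (Nup160), 0.34 (Nup37), -0.04 (Nup133) and -0.04 (Nup85), and the other inner ring genes by 0.16 (Nup205), -0.02 (Nup155) and -0.09 (Nup188). Of the membrane nucleoporins, which anchor the ring in the envelope, Pom121 differed by 0.40 (SE 0.29), Nup210 by 0.06 (SE 0.32) and Ndc1 by -0.21 (SE 0.25). Ndc1 read 6.90, 7.06 and 7.03 in NP muscle and 7.15, 6.23 and 6.99 in NP+tau muscle. The low value was again that of NP+tau replicate 2, and without it the difference was 0.07. Nup210l, a relative of Nup210 known from testis, was dim at 5.24, 5.18 and 4.83 in NP and 4.93, 4.94 and 4.83 in NP+tau muscle, a difference of -0.18 (SE 0.16).

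In liver 6 of 6 Y complex genes, 5 of 5 of the cytoplasmic side, 2 of 2 of the basket and 3 of 4 of the inner ring were below 0. Nup93 read 7.80, 6.81 and 6.97 in NP liver and 5.60, 6.83 and 6.80 in NP+tau liver. NP replicate 1 was high, NP+tau replicate 1 was low and the other 4 samples lay within 0.2 of each other, so that the difference of -0.78 (SE 0.41, limma unadjusted p = 0.103) was -0.37 without that NP+tau sample. Nup155, an inner ring scaffold protein, read 7.13, 6.66 and 7.03 in NP liver and 6.52, 6.41 and 6.75 in NP+tau liver. The groups overlapped slightly, the difference was -0.38 (SE 0.20, limma unadjusted p = 0.0987), both of its probe sets that passed the filter differed downward, and without NP+tau replicate 1 the difference was -0.36. Nup88 read 8.72, 8.56 and 8.67 in NP liver and 8.45, 8.42 and 8.53 in NP+tau liver, without overlap and with a difference of -0.19 (SE 0.16). At the probe sets used, all 3 NP+tau samples thus lay below the NP mean for Ipo5, Nup155 and Nup88, with differences between -0.38 and -0.19. The same held for other members, among them Tnpo1, Kpna2, Nup98 and Nup214 (7.05, 7.10 and 7.33 against an NP mean of 7.39). The share of all genes with this trait was not counted.

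Other liver differences came mostly from NP+tau replicate 1. Ranbp2 read 8.90, 8.72 and 8.84 in NP and 6.51, 9.16 and 8.88 in NP+tau liver, and Tnpo2 read 7.01, 6.39 and 6.79 in NP and 4.94, 6.93 and 6.69 in NP+tau liver. In both genes replicate 1 was more than 1 log2 unit below all other samples, whereas replicate 2 was above the NP mean. The difference of Ranbp2 was -0.64 and became 0.20 without replicate 1, and that of Tnpo2 was -0.54 and became 0.08. Over the 49 genes, 19 changed sign in liver when this sample was left out. The membrane nucleoporin Nup210 read 7.05, 7.10 and 6.79 in NP liver and 6.96, 6.93 and 7.21 in NP+tau liver, a difference of 0.05 (SE 0.18). Nup210l read 5.60, 5.51 and 5.46 in NP and 5.96, 5.60 and 5.51 in NP+tau liver, a difference of 0.17 (SE 0.19) that was 0.03 without NP+tau replicate 1.

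Exportins carry proteins, transfer RNA and precursors of microRNA out of the nucleus. In muscle 5 of 6 were above 0, with a median of 0.27. Xpot, the exportin of transfer RNA, read 8.24, 8.21 and 8.75 in NP muscle and 8.53, 9.79 and 8.69 in NP+tau muscle. NP+tau replicate 2 was high and the rest overlapped, for a difference of 0.61 (SE 0.35), and all 3 Xpot probe sets that passed the filter differed upward, by 0.57 to 0.63. Xpo1, the exportin of proteins with a leucine-rich signal, read 8.06, 8.42 and 8.57 in NP and 8.87, 8.43 and 9.11 in NP+tau muscle. NP+tau replicate 2 was the lowest of its group here and overlapped NP, and the difference was 0.45 (SE 0.23).

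Xpo7 and Xpo6, exportins of broad cargo and of actin, differed by 0.30 and 0.24 in muscle, Xpo5, which exports precursors of microRNA, by 0.07, and Xpo4 by -0.03. The other probe set of Xpo5, at which the gene was read in liver, differed by -0.27 in muscle, so its sign there depends on the probe set. In liver 6 of 6 exportins were below 0, from -0.60 (Xpo7, SE 0.40) and -0.40 (Xpot, SE 0.26) to -0.05 (Xpo4, SE 0.16). Without NP+tau replicate 1, Xpo7 and Xpot differed by -0.16 each, Xpo4 by -0.09 and Xpo6 by -0.01. Xpo1 and Xpo5 turned to 0.09 and 0.10. Another probe set of Xpot differed by 0.003 in liver over all samples.

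The Ran cycle gives transport its direction, and 3 of 3 of its genes were above 0 in muscle. Ran itself read 10.64, 10.70 and 10.94 in NP muscle and 10.78, 11.04 and 11.23 in NP+tau muscle. The groups overlapped and the difference was 0.26 (SE 0.17), with all 5 Ran probe sets that passed the filter upward, most of them with probes shared with other transcripts. Rangap1, which makes Ran hydrolyse GTP at the outer face of the pore, read 7.47, 7.47 and 7.55 in NP and 7.64, 8.14 and 7.69 in NP+tau muscle, without overlap and with a difference of 0.33 (SE 0.17). A further probe set of Rangap1 differed by 0.54, also without overlap, and the remaining one by -0.24, with overlap. Ranbp1, a helper of that step, differed by 0.13 (SE 0.19). In liver Ran differed by -0.005 (SE 0.22), Ranbp1 by -0.23 (SE 0.22) and Rangap1 by -0.33 (SE 0.48). Rangap1 read 6.27 in NP+tau replicate 1 against 7.64 to 8.18 in the other 5 samples, and without it the difference turned to 0.27.

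**Figure D5:**
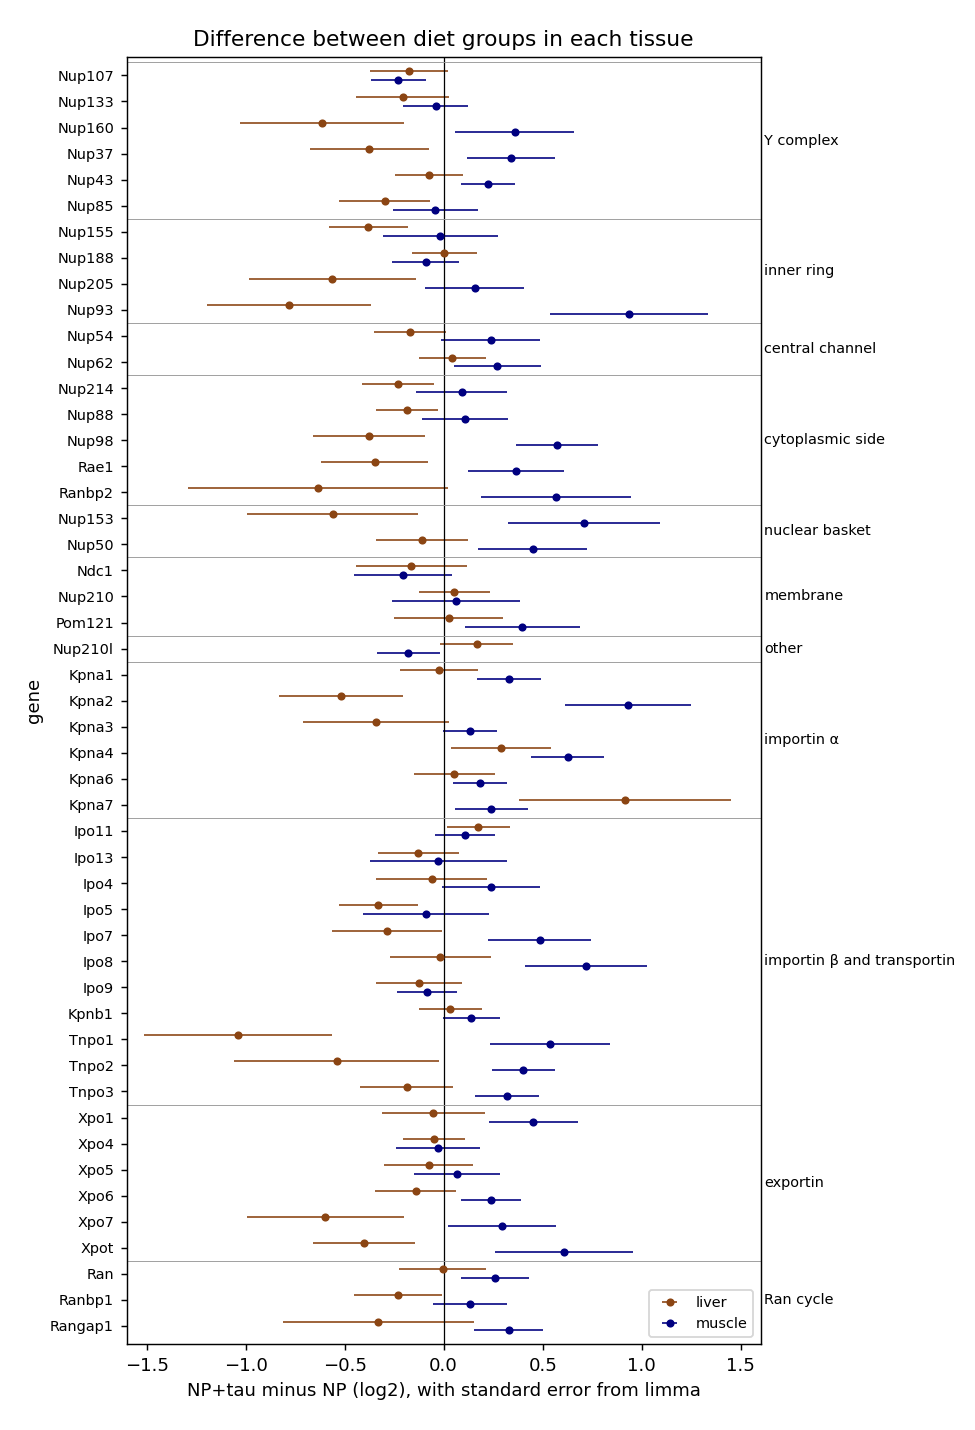
Points are the log2 difference NP+tau minus NP for each of the 49 genes in liver (brown) and muscle (navy), and bars are the standard error from limma. Most muscle points lie right of 0 (38 of 49) and most liver points left of it (39 of 49), with error bars of many genes reaching 0.

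Muscle and liver differed in the direction of the diet difference for many of these genes. Of the 49 genes, 30 were above 0 in muscle and below 0 in liver, 2 the reverse, 8 above 0 in both and 9 below 0 in both. The same counts over all genes were not made. The liver signs rest largely on NP+tau replicate 1: without it 19 of the 49 turned, and 21 were above 0 in liver. The test of the difference itself, an interaction over the 12 arrays with limma, passed for 0 of 25622 probe sets (0%) at an adjusted p of 0.05, with 1999 at an unadjusted p under 0.05. At that unadjusted limit 4 of the 49 members stood, against 8.6% of genes. This fit treats the arrays as independent although each animal gave both tissues. A further fit took the animal as a random block (estimated correlation 0.148). It assumed that equal replicate numbers of a diet group in liver and muscle are the same animal, which the sample titles do not state. In it 0 probe sets passed, 2927 had an unadjusted p under 0.05 in limma and 5 members were among them. Kpna2 differed by 1.45 more in muscle than in liver (SE 0.48, unadjusted p = 0.0108), Nup93 by 1.72 (SE 0.62, unadjusted p = 0.0178), Nup98 by 0.95 (SE 0.37, unadjusted p = 0.0241) and Tnpo1 by 1.57 (SE 0.61, unadjusted p = 0.0244), each with an adjusted p of 0.542 in limma without the block. For all 4 the lowest of the liver values was that of NP+tau replicate 1. No member had groups without overlap in both tissues.

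Genes of nuclear transport whose symbols lie outside the rule, among them Seh1l, Sec13, Aaas, the exportin Cse1l and the messenger RNA export factors Nxf1 and Ddx19b, were read from a list of 34 symbols, of which 31 were measured. In muscle 26 of the 31 were above 0, against 54.6% of all genes, with a median of 0.18. At an unadjusted p under 0.05 in limma 3 were higher, against 4.24% of all genes, and 0 were lower, against 2.09%. These 3 were the importin relative Ranbp6 at 0.55, the helicase Ddx19b at 0.49 and the Y complex gene Seh1l at 0.48, each without overlap. In liver 6 of the 31 were above 0, against 46.3% of all genes, with a median of -0.14, and 0 were higher and 0 lower at the unadjusted limit, against 0.831% and 4.32% of all genes. Seh1l differed by -0.61 in liver, where every NP+tau value was below every NP value, but by -0.13 without NP+tau replicate 1. Without that sample 12 of the 31 were above 0 in liver, with a median of -0.06.

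Other genes of the nuclear envelope, for proteins of the lamina, of the envelope's membranes and for their partners, were read beside these lists, with no test between lists. Of 16 such genes, 9 were above 0 in muscle with a median of 0.05, from -0.16 (Tor1a) to 0.34 (Lmnb2), and 0 were past the unadjusted limit in limma in either direction. In liver 4 of 16 were above 0, with a median of -0.27. Without NP+tau replicate 1 there were again 4 of 16, and the median was -0.10. Of the 15 that passed the filter, 9 were above 0 in muscle and 3 in liver, against 54.6% and 46.3% of all genes.

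Cell makeup was read from marker lists, since in bulk tissue fewer cells of a type and less RNA per cell cannot be told apart. Genes of proliferation, in whose cells Kpna2 is abundant, had a median difference of 0.14 in muscle with 13 of 19 above 0, and their mean ranged over 5.27 to 6.35 in the NP samples, with 5.22 to 6.88 in the NP+tau samples. NP+tau replicate 2, which was highest for most transport genes, had the lowest mean for proliferation in muscle. Of the 10 endothelial genes 8 were above 0 in muscle (means 7.75 to 7.88 in the NP samples, against 7.98 to 8.09 in NP+tau), as were 8 of the 10 of smooth muscle and pericytes (8.94 to 9.22 and 9.09 to 9.65). The means of 9 lymphocyte and 6 erythroid genes were high in NP+tau replicate 3 of muscle alone, at 6.59 and 7.34 against at most 4.86 and 6.02 elsewhere. Other lists were mostly below 0 in muscle, with 7 of 7 Schwann cell genes (median -0.37), 11 of 12 macrophage genes (-0.33), 7 of 8 adipocyte genes (-0.29) and 10 of 10 hepatocyte genes (-0.30), the last at a low mean of 5.05 to 5.78.

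In liver all 12 macrophage genes were below 0, with a median of -1.15 and means of 9.12 to 9.96 in the NP samples, against 7.68 to 8.68 in NP+tau, and 18 of 19 proliferation genes were below 0. Of the fibroblast and stellate cell genes 9 of 10 were below 0 with a median of -0.93, 6 of them at an unadjusted p under 0.05 in limma, and of the endothelial genes 9 of 10 with a median of -0.44. Neutrophil genes had a median of -2.23 in liver, with a mean of 9.22 in NP replicate 1, the sample with the most transport genes at their highest, and of 5.15 to 6.49 in the other 5. The part of these cells in the values of the transport genes was not tested.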

How the data were processed

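RNA of liver and quadriceps muscle from 12 samples, 3 per group and tissue, was hybridised to Affymetrix mouse arrays. The deposited values are log2 expression values, which the authors made by quantile normalisation and RMA summary of the arrays of each tissue apart, so levels were not compared between tissues. The number of arrays limits the precision. Of 45101 probe sets, 64 controls were removed, and in each tissue those whose highest value over the 6 samples reached the 35th percentile of such values were kept (29274 per tissue). Of the rest, 34945 had 1 gene symbol in the platform annotation, 932 several and 9160 none, and only the first were named.

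The groups were compared within a tissue by limma 3.58.1 (lmFit, then eBayes) under R 4.3.3 over all kept probe sets, two-sided, with Benjamini-Hochberg adjustment and a threshold of 0.05. The interaction was fitted over the 25622 probe sets kept in both tissues. With 3 against 3 samples an exact permutation test cannot go below 0.10, so none was used. The fit was tested on simulated data. Figures were drawn with matplotlib 3.10.9, and promoters were read with Python 3.11.15 from RefSeq windows, whose part after the start was not used.

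The members and lists were chosen with earlier results of these data known. Values in every sample are given, for each tissue, for the members of smallest unadjusted p (6 with NP+tau higher, 4 with it lower), and for genes whose groups did not overlap; further genes shown in this way (among them Kpna2 in liver, Ran, Xpo1, Xpot, Nup153, Ranbp2 and Tnpo2 in liver) were chosen after their values were seen. Replicate numbers did not pair samples: deviations of same-numbered samples correlated at 0.02, -0.11 and 0.11 in liver and -0.21, -0.27 and 0.33 in muscle. Alternatives were the filter, array centring, array weights, an intensity trend, Xist as a covariate, the replicate block, the mean of all probe sets of a gene and each sample left out.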

Additional observations from a re-analysis of the deposited data

How the results depend on the processing

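The number of probe sets past the adjusted threshold stayed at 0 in both tissues without the filter, with a filter at the 50th percentile, with arrays centred, with the intensity trend and with the replicate block, and at 0 for the difference between tissues in the 3 alternatives run there. In liver it was 8 with array weights, 9449 with Xist as a covariate and 9 with replicate 1 of both groups left out, and it ranged from 0 to 9 when each sample was left out in turn (9 without NP+tau replicate 1, 1 without NP replicate 3). In muscle it ranged from 0 to 8 (8 without NP+tau replicate 1). With Xist in the fit the diet difference rests on NP+tau replicate 1, the one NP+tau animal with high Xist, which in liver is the array that stood apart.

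The liver median over the 49 genes was -0.465 with Xist as a covariate and 0.0456, of opposite sign, with replicate 1 of both groups left out. It was -0.01 with array weights and -0.06 with arrays centred, and the samples left out in turn gave -0.27 to -0.03. Liver members higher at an unadjusted p under 0.05 numbered 2 with Xist and 0 to 1 with samples left out (1 without NP+tau replicate 2), and those lower numbered 17 and 0 to 3 (3 without NP+tau replicate 3). The muscle median stayed between 0.13 (Xist) and 0.31 (without NP+tau replicate 1), and was 0.14 over the mean of all probe sets of a gene. Muscle members higher at that limit numbered 0 with Xist, 2 with the replicate block and 2 to 10 with samples left out: 2 without NP replicate 1, NP replicate 2 or NP+tau replicate 3, and 10 without NP+tau replicate 1. Without NP+tau replicate 1, all NP+tau samples have the male pattern and all NP samples the female one. The block changed no other count here.

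Kpna4 in muscle was no longer under the unadjusted limit with Xist (0.41) and over the mean of its probe sets (0.38). Of the 49 genes, 19 turned sign in liver without NP+tau replicate 1, among them Ranbp2, Tnpo2 and Rangap1, and 9 in muscle without NP+tau replicate 2. Among the 10 genes of each tissue recomputed under every alternative, signs turned for Kpna6 in liver with array weights (-0.0103), with replicate 1 of both groups left out (-0.0104) and among samples left out in turn (-0.0846 to 0.196), Nup210 in liver with Xist (-0.0564) and among samples left out (-0.0415 to 0.115), Ndc1 in muscle with Xist (0.129) and among samples left out (-0.384 to 0.0741), and Ipo9 in muscle with Xist (0.113). The cause was not tested.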
